A study of Mus musculus with 4 samples.

Results

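The variant lists of 2 mouse tumour cell lines held 1265 A-to-G and T-to-C substitutions in 3′ untranslated regions (3′ UTRs), the stretch of a messenger RNA between its stop codon and its poly(A) tail. Every listed variant annotated to a 3′ UTR was taken, A-to-G and T-to-C changes on the listed genome strand were kept, and the strand of the gene then gave the change on the RNA. LM8 held 537 such entries among 5445 listed variants, and MBT2 held 728 among 6361, so the members made up 1265 of 11806 entries. They lay at 1190 distinct sites, because some sites were in both lists. On the RNA, LM8 had 191 A-to-G sites in 175 genes and 346 T-to-C sites in 337 genes. MBT2 had 300 A-to-G sites in 257 genes and 428 T-to-C sites in 410 genes.

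MBT2 is a bladder cancer line, represented here by cells labelled 63 and grown in RPMI-1640, and LM8 is an osteosarcoma line grown in MEM with 24 mM HEPES. Both lines match the C3H/HeN mouse strain, both media held 10% fetal bovine serum, and no treatment is given for either. Each line gave 2 libraries of poly(A) RNA, prepared so that the strand is kept and sequenced as paired reads of 75 bases, and 1 joint list of variants against the GRCm39 genome. GRCm39 represents another strain (C57BL/6J), and no DNA library was analysed here. A strain difference, a mutation of the line and a change made in the RNA therefore cannot be told apart at a single site. The labels do not say whether the 2 libraries of a line came from different cultures. P-values here rest on counts of listed sites, or of reads where a single site is tested, and measure no spread between cultures. The spread between reads may be technical. The lists hold reads only at listed sites, which gives depth per site but no library total. The median member was covered by 119 reads (A-to-G) or 144 reads (T-to-C) in LM8 and by 146 or 171.5 reads in MBT2. No gene of a 16-gene urothelial and epithelial list had any listed variant in either line, and the 10-gene list of blood, endothelial, liver and neuron markers had none. Of 14 osteoblast and mesenchymal genes, LM8 listed variants in Col1a1, Col1a2 and Runx2, and MBT2 in Phex. Variant lists do not measure expression, so these counts check the labelled tissue only in that a listed gene was transcribed.

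The best known source of A-to-G changes between a genome and its RNA is adenosine deamination by ADAR enzymes, which turn adenosine into inosine, and inosine is read as guanosine by reverse transcriptase. ADARs act on double-stranded RNA. In mouse 3′ UTRs such duplexes often form where 2 copies of a short interspersed repeat, such as B1, lie in opposite directions and pair. The enzymes disfavour a guanosine on the 5′ side of the adenosine and favour one on the 3′ side, and a cytidine opposite the adenosine is a good substrate. T-to-C changes have no such common enzyme in mammals, which makes them the natural companion class for A-to-G changes in the same transcripts.

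The windows below are 21 bases of the transcript, 5′ to 3′ in DNA letters, with the substituted base in capitals. All were read from GENCODE M21 transcripts, and the sites carry their GRCm39 positions from the lists. The first set shows A-to-G sites that lay in an inverted match, that is, in a stretch of at least 40 bases whose reverse complement occurs in the same 3′ UTR at 70% identity or more. Each is followed by the window of the opposite arm, with the base that faces the adenosine in capitals.
Mad2l1 chr6:66517065: aatgtgtgttAttgttccatt
Mad2l1 opposite arm: aatgcagcagTaagacacatt
Gabpb2 chr3:95091252: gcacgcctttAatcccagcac
Gabpb2 opposite arm: gtgctggaatTaaaggcacct
Ncl chr1:86276528: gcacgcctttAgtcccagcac
Ncl opposite arm: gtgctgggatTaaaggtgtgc
Spc24 chr9:21667146: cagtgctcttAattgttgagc
Spc24 opposite arm: gctcagtggtTaagagcacac
Bri3bp chr5:125533669: cggagtttaaAgccagtctgg
Bri3bp opposite arm: tgagactggcCttaaactctc
Atl3 chr19:7515480: tctcagtgtaAccttgtctgt
Atl3 opposite arm: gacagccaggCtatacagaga
The second set shows A-to-G sites without such a match at which a large share of reads, or both lines, carried the change.
Nup155 chr15:8188973: acttccaagtActggaaatcc
Capn2 chr1:182295496: tgtcctggccAtagcaatatt
Axl chr7:25457788: cgctgttgctAtagacaggcc
The third set shows 1 A-to-G site and then T-to-C sites whose changed base lay within 4 bases of the end of the reads in the median, to let the run of G on their 3′ side be seen.
Haus6 chr4:86499331: cctcattgtcAggggtcttgt
Ormdl3 chr11:98472956: gatgggttgaTgggacaccta
Elavl1 chr8:4338441: ccttgacgttTggggttctgt
Ago2 chr15:72967942: aataaattcaTgggaaaccta
The fourth set shows T-to-C sites with a large share of changed reads.
Il2rg chrX:100308426: ctcaaagtccTatagtcctaa
Slc16a1 chr3:104563917: atcttaggtaTgtgtgggttt

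A-to-G and T-to-C made up 48.4% of the 1110 substitutions in LM8 3′ UTRs (95% exact interval 45.4 to 51.4) and 56.2% of the 1296 in MBT2 (53.4 to 58.9). T-to-C was the most frequent of the 12 classes in both lists. A-to-G came after G-to-A in LM8, with 191 against 315, and was about level with it in MBT2, with 300 against 302. Within the pair, A-to-G was 35.6% in LM8 (31.5 to 39.8) and 41.2% in MBT2 (37.6 to 44.9). The odds of A-to-G were 1.27 times as high in MBT2 as in LM8 (95% interval 1.01 to 1.60, 2-sided Fisher exact test, p = 0.0472), a comparison of 2 lists and not of repeated cultures. That call was lost with sites of at least 40 reads (exact p = 0.0534), with 1 site per gene (p = 0.128) and without replicate 1 of both lines (p = 0.126).

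The classes differed in where the changed base sat in its reads. In LM8 the median distance of the changed base from the read end was 6 bases at A-to-G sites and 1 base at T-to-C sites. In MBT2 it was 14 bases and 2 bases. Within 4 bases of a read end lay 46.6% of A-to-G sites and 90.2% of T-to-C sites in LM8, and 31.7% and 90.4% in MBT2. Over both lists this came to 184 of 491 A-to-G entries and 699 of 774 T-to-C entries. The A-to-G sites fell into a peak at a distance of 1 base and a broad spread over larger distances. The T-to-C sites formed the peak with almost none of the spread. The authors' filter required a median distance of at least 1 base, per the file headers. The split at 5 bases was chosen after these values were seen, so the comparisons between sites near to and far from read ends are given without a test. At the limit itself, 6 A-to-G sites and 24 T-to-C sites of LM8 had a distance of 4 bases, and 6 and 17 had 5 bases.

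**Figure D1:**
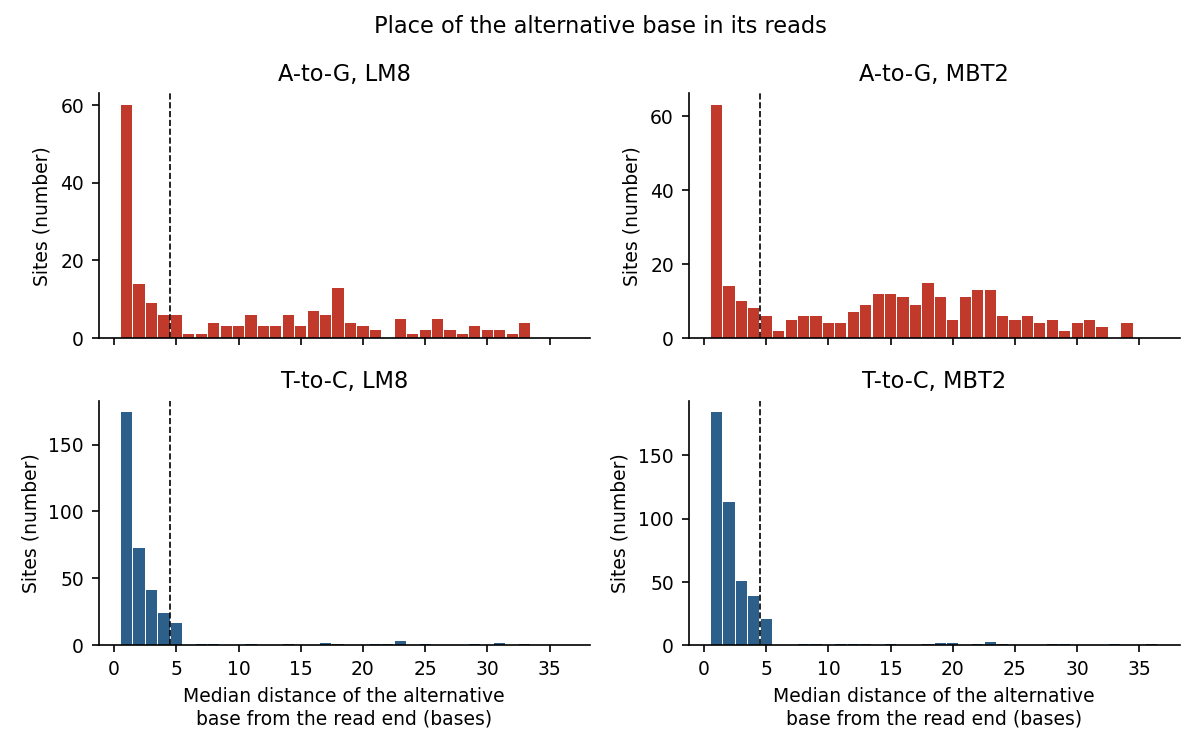
Number of sites (vertical axis) by the median distance, in bases, of the changed base from the end of the reads that carry it (horizontal axis), for A-to-G sites (top, red) and T-to-C sites (bottom, blue) of LM8 (left) and MBT2 (right); the dashed line separates distances of up to 4 bases from larger ones. All panels peak at 1 base, and the A-to-G panels alone have a broad second part, with medians of 6 and 14 bases against 1 and 2 bases for T-to-C.

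With sites within 4 bases of a read end left out, A-to-G was the larger class: 102 A-to-G against 34 T-to-C sites in LM8 (75% A-to-G) and 205 against 41 in MBT2 (83.3%). Against coding substitutions of the same lists, the result turned with this choice. Over all sites, the A-to-G share of the pair was lower in 3′ UTRs than in coding sequence, at 35.6% against 46.5% in LM8 (odds ratio 0.635, Fisher exact test, adjusted p = 0.00149) and 41.2% against 53.9% in MBT2 (odds ratio 0.60, adjusted p = 9.58e-05). Away from read ends it was higher in 3′ UTRs in LM8 (75% against 57.0%, odds ratio 2.26, interval 1.32 to 3.83), and in MBT2 the interval of the difference spanned both directions (83.3% against 80%, odds ratio 1.25, 0.743 to 2.12). The share of sites near a read end moved in opposite directions for the classes: in coding sequence it was lower than in 3′ UTRs for T-to-C, at 73.4% in LM8 and 84.2% in MBT2, and higher for A-to-G, at 59.4% and 46.0%.

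**Figure D2:**
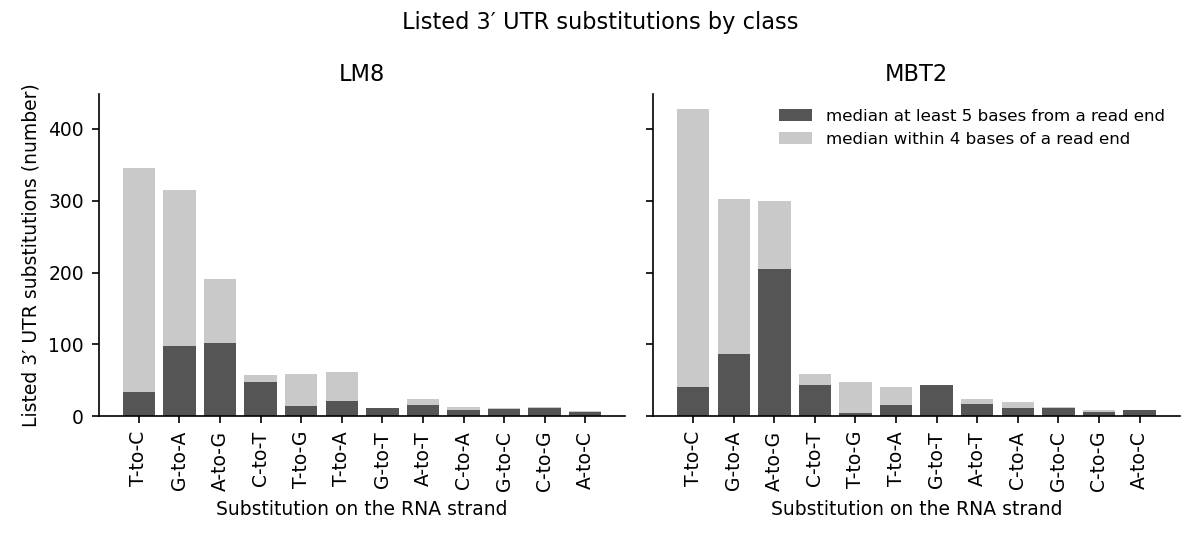
Number of listed 3′ UTR substitutions (vertical axis) of each of the 12 classes on the RNA strand (horizontal axis) in LM8 (left) and MBT2 (right), split into sites whose changed base lay within 4 bases of a read end in the median (light) and farther in (dark). T-to-C has the tallest bars, 346 and 428, of which all but 34 and 41 are light. A-to-G has the tallest dark parts, 102 and 205. In LM8 the dark part of G-to-A is nearly as tall, with 68.9% of its 315 sites light. In MBT2 the dark part of G-to-A is much shorter, with 71.2% of its 302 sites light.

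Reads carrying the change also ran in different directions. At T-to-C sites near read ends, the changed base was read along the RNA, from 5′ to 3′, in 32 of 2478 reads in LM8 (1.29%) and 29 of 3193 in MBT2 (0.908%). Reads with the reference base at the same sites ran that way in 15.0% and 15.4%. At A-to-G sites away from read ends, 46.9% of changed and 47.0% of reference reads ran along the RNA in LM8, and 44.5% and 46.8% in MBT2. At the fewer T-to-C sites away from read ends, 226 of 601 changed reads (37.6%) ran along the RNA in LM8. In MBT2 it was 683 of 1473 (46.4%). Reference reads at these sites ran that way in 31.4% and 32.3%. These shares sum reads over sites. No changed read ran along the RNA at 20 of 34 of these T-to-C sites in LM8 and 22 of 41 in MBT2. For A-to-G sites away from ends it was 17 of 102 and 14 of 205. T-to-C reads near ends came almost wholly from 1 direction. The A-to-G sites near read ends lay between, with 13.3% of changed reads along the RNA in LM8 and 8.31% in MBT2.

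The orientation of the fragments placed both classes on the annotated gene strand. Of reads with the change whose fragment orientation was given, 97.7% at LM8 A-to-G sites (1795 of 1837) and 99.5% at LM8 T-to-C sites (2396 of 2408) came from the sense strand. The shares were 99.8% (8256 of 8276) and 98.0% (3693 of 3767) in MBT2. Coding substitutions of the same lists, used as the calibration, gave 99.8% and 99.9%. Mostly antisense reads were seen at 6 A-to-G and 2 T-to-C sites of LM8 and at 3 and 2 of MBT2, and 1 MBT2 site, in Atl1, gave 68 of the 74 antisense T-to-C reads there.

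Inverted matches separated the classes. Among distinct sites whose place in a GENCODE transcript could be matched, 67 of 429 A-to-G sites (15.6%, exact interval 12.3 to 19.4) lay in an inverted match of their own 3′ UTR. None of 683 T-to-C sites did, which allows up to 0.539% at the upper exact bound (Fisher exact test, p = 6.35e-30). Of all adenosines in the same 367 3′ UTRs, 2.17% lay in such a match, and of all thymidines in the 642 3′ UTRs with T-to-C sites, 0.583%. The other 10 classes together had 4 of 1078 (0.371%). Most of the T-to-C sites, 615 of 683, lay within 4 bases of a read end. There, 1 of 171 A-to-G sites (0.585%) and 0 of the 615 T-to-C sites lay in a match. Away from read ends it was 66 of 258 A-to-G sites (25.6%) and 0 of 68 T-to-C sites. For those 68 sites the upper exact bound was 5.28%, above the share of all adenosines. LM8 alone gave 36 of 180 A-to-G sites (20%) and MBT2 alone 36 of 276 (13.0%). Sites of 1 transcript share its sequence and are not independent. With 1 site per gene and class the share of A-to-G sites was 11.3%, and with a match of at least 60 bases at 75% identity it was 10.3%.

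The 67 sites lay in 46 genes, and 66 of them were at least 5 bases from read ends. Their matches were 40 to 248 bases long (median 75), with a median identity of 79.0%, and the arms were 558 bases apart in the median. At 8 sites the arms overlapped, as in the AT-rich repeats of Ado and Dnajb12, where a stretch is close to its own reverse complement. The changed reads made up 1.49% to 67.1% of reads at these sites, with a median of 7.69%. The base facing the adenosine was thymidine at 37 of 67 sites (55.2%) and cytidine at 24 (35.8%). Over all adenosines in the matches of the same 3′ UTRs, 83.6% faced thymidine and 8.45% cytidine. The facing base was looked at after the matches were found and is given as a description.

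The most frequent 9-base word in the windows of A-to-G sites away from read ends was TAATCCCAG, present in 15 of 258 windows (5.81%), in 0 of 674 T-to-C windows, and in 0.0979% of windows around all adenosines of the same 3′ UTRs. It belongs to the conserved start of B1 repeats, and the Gabpb2 and Ncl windows above hold it or its near copies. Words were searched on the RNA strand only, overlapping words were counted apart, and this word was picked because it was the most frequent.

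The neighbouring bases differed too. A guanosine stood 5′ of 16.8% of A-to-G sites (72 of 429) and of 34.4% of T-to-C sites (235 of 683). The odds ratio was 0.384 (interval 0.287 to 0.520, Fisher exact test, p = 7.27e-11). Of all thymidines in the 3′ UTRs with T-to-C sites, 19.9% had a guanosine there, so the ratio also reflects a raised T-to-C share. That share was 35.6% near read ends and 23.5% away from them. Among A-to-G sites away from read ends a guanosine stood 5′ of 9.30% (24 of 258), against 21.1% of all adenosines of these 3′ UTRs. Thymidine stood there at 45.7% against 23.2%. On the 3′ side of these sites guanosine stood at 39.9%, against 26.5% of all adenosines. A-to-G sites near read ends had another makeup, with cytidine on the 5′ side at 46.2% and guanosine on the 3′ side at 60.8%.

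**Figure D3:**
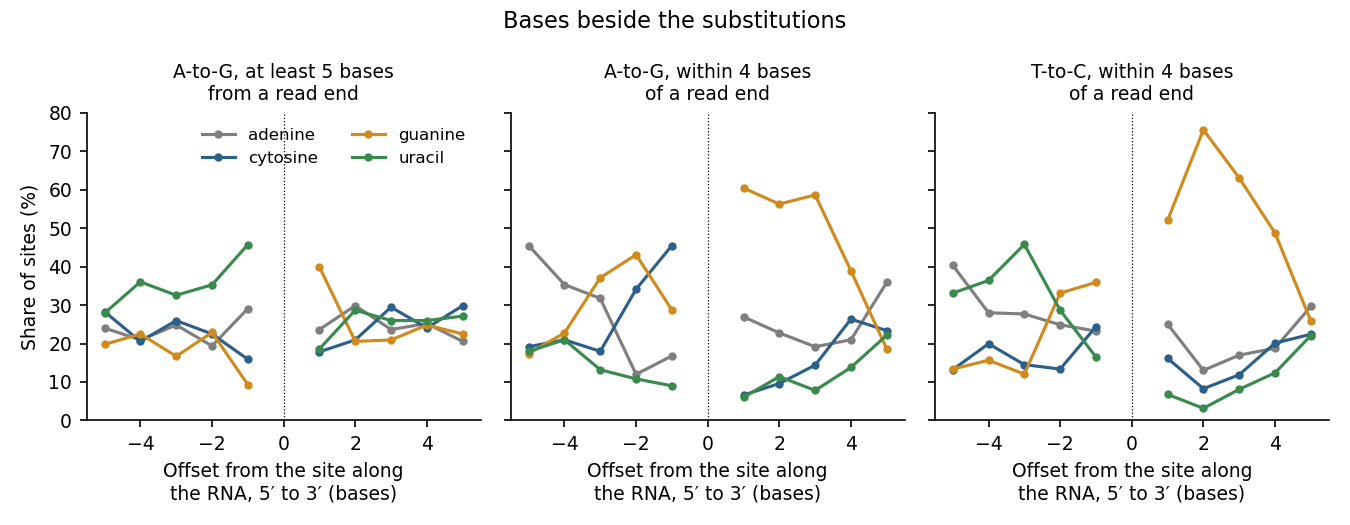
Share of sites (vertical axis, in percent) with adenine, cytosine, guanine or uracil at each of the 5 bases on either side of the substituted base along the RNA (horizontal axis, offset in bases), for A-to-G sites away from read ends (left), A-to-G sites near read ends (middle) and T-to-C sites near read ends (right). Guanine is low just 5′ and raised just 3′ of the first group, at 9.30% and 39.9%, and forms a broad rise over the bases 3′ of the other panels, reaching 75.6% at the second base 3′ of T-to-C sites.

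A run of 3 guanosines within the 6 bases 3′ of the site (GGG, searched on the RNA strand) occurred at 48.6% of T-to-C sites near read ends and at 38.9% of A-to-G sites near read ends. It occurred at 5.04% of A-to-G sites away from read ends, close to the 4.17% over all adenosines and 4.20% over all thymidines of the same 3′ UTRs. T-to-C sites away from read ends also had it, at 40.3% (27 of 67), and 38 of their 75 entries sat at exactly 5 bases, next to the limit. This motif was likewise chosen after the windows were seen. Whether the place in the read accounts for the T-to-C class was not tested.

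The share of changed reads differed between the classes. The median was 5.19% at A-to-G and 4.50% at T-to-C sites in LM8, and 5.35% and 4.22% in MBT2. At least 10% of reads carried the change at 42 of 191 A-to-G sites (22.0%) and 36 of 346 T-to-C sites (10.4%) in LM8, an odds ratio of 2.43 (1.49 to 3.92, Fisher exact test, adjusted p = 0.000484). In MBT2 it was 81 of 300 (27.0%) against 35 of 428 (8.18%), an odds ratio of 4.15 (2.68 to 6.31, exact test, adjusted p = 3.01e-11). Away from read ends the odds ratios were 1.09 (0.476 to 2.43) and 1.68 (0.784 to 3.40), with exact-test adjusted p = 1 and p = 0.427. No site of either class near a read end reached 20%.

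A-to-G sites stood close together in MBT2. A neighbour of the same class within 100 bases was present for 38 of 300 A-to-G sites (12.7%) and 8 of 428 T-to-C sites (1.87%), an odds ratio of 7.61 (3.40 to 15.5, Fisher exact test, adjusted p = 7.53e-09). In LM8 it was 8 of 191 (4.19%) against 8 of 346 (2.31%), which did not pass the test (odds ratio 1.85, 0.701 to 4.85, exact test, adjusted p = 0.289). With a window of 50 bases the LM8 odds ratio was 7.52 (exact test, adjusted p = 0.00503). The LM8 A-to-G sites there were pairs in Azi2, Gabpb2, Mad2l1 and 2900026A02Rik, and the T-to-C sites a pair in Slc6a9. Both sites of a pair count as having a neighbour, so they are not independent. The tests take them as independent, which makes the p-values for neighbours too small in both lines. The authors kept at most 2 events in a region, per the file headers, so denser groups could not appear in the lists. Adjacent adenosines were both listed at Gabpb2 and Azi2 in LM8 and at Aida, Ccl7, Hinfp, Hipk2, Lmbrd2, Lypla1 and Wipi2 in MBT2.

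The median shares of changed reads were close between the duplicate libraries. At the A-to-G sites of LM8 the median share of changed reads was 4.58% in library 1 and 5.06% in library 2, and in MBT2 5.74% and 4.65%. At the T-to-C sites it was 4.44% and 4.03% in LM8 and 4.05% and 4.20% in MBT2. No site differed between libraries after Benjamini-Hochberg adjustment over all listed variants of a line (Fisher exact test per site, 0 of 5445 in LM8 and 0 of 6361 in MBT2, 0%). Unadjusted, 7 A-to-G and 10 T-to-C sites of LM8 fell below 0.05, against 3.89% of all listed variants. In MBT2 it was 11 and 9 sites, against 3.76%. Both are at or below the background share. The median absolute difference between libraries was 2.16 to 3.04 percentage points in the 4 sets of sites, so single sites of a few percent could not be ranked against each other.

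**Figure D4:**
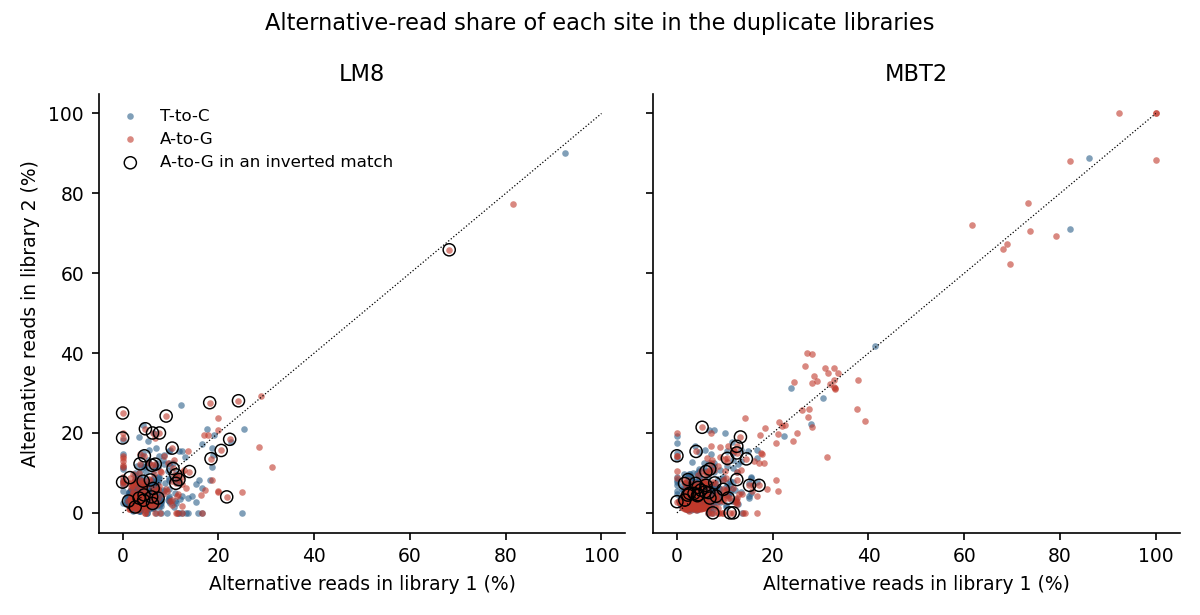
Share of reads with the changed base, in percent, in library 1 (horizontal axis) and library 2 (vertical axis) for each A-to-G site (red) and T-to-C site (blue) of LM8 (left) and MBT2 (right); black rings mark A-to-G sites in an inverted match, and the dotted line marks equal shares. Most sites lie below 20% in both libraries, and MBT2 has 12 A-to-G and 3 T-to-C sites above 40%, against 2 and 1 in LM8.

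In LM8, Mad2l1, which encodes a spindle checkpoint protein, held the A-to-G site with the longest inverted match. The site, in exon 5 at base 138 of the 3′ UTR, was changed in 148 of 217 reads of library 1 (68.2%) and 137 of 208 reads of library 2 (65.9%). A site 10 bases upstream, in the same 248-base match, was changed in 1.23% and 2.96%. The 2 adenosines thus differed widely within 1 arm of the match. Gabpb2, a subunit of the GA-binding transcription factor, had 4 A-to-G sites in exon 9. The adjacent pair printed above was changed in 24.2% and 28.1% of reads at the first adenosine and in 18.5% and 13.6% at the second. Another Gabpb2 site, in a match of 86 bases, had 3.45% and 3.70%. The remaining one, at a median distance of 1 base from the read end, had 1.74% and 3.03%.

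Ncl, which encodes the nucleolar RNA-binding protein nucleolin, had 4 A-to-G sites in each line, all different, along an annotated 3′ UTR of 5901 bases in exon 14. In LM8 they ran from 2.08% to 8.04% of reads, and in MBT2 from 2.44% to 5.06%. Of these 8 sites, 6 lay in inverted matches of 40 to 127 bases. Bri3bp had a site at 18.2% and 27.6% of reads in an 81-base match and a second at 14% and 10.3%, both in LM8. Lix1l had sites at 20.6% and 15.6% and at 6.25% and 2.35%, which lay in opposite arms of 1 match of 46 bases.

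In MBT2, Atl3, a GTPase that shapes the endoplasmic reticulum, had the most A-to-G sites, 5, from 2.22% to 25.7% of reads. The highest was at 27.4% in library 1 and 24.1% in library 2. It lay in no inverted match of the 3′ UTR of its listed transcript, 2564 bases long. Another Atl3 site is listed on a transcript with a 3′ UTR of 5638 bases, in which the highest site was not searched. Capn2, the catalytic subunit of a calcium-dependent protease, had 2 deeply covered sites. At base 281 of its 3′ UTR, 282 of 860 and 328 of 906 reads were changed (32.8% and 36.2%), and at base 49, 32.9% and 31.3%. Neither lay in an inverted match. The interval of each was narrow, 32.3% to 36.8% and 29.8% to 34.4%, for counting error only. Lmbrd2 had 4 sites between 3.37% and 5.26%, Lbhd1 3 between 5.47% and 6.79%, Ddx19b, a helicase of mRNA export, 3 between 5.45% and 22.1%, and Bmpr2, a receptor for bone morphogenetic proteins, 3 between 3.28% and 7.34%.

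The A-to-G sites of highest share, among those with at least 40 reads, lay mostly outside inverted matches, as did most A-to-G sites. In MBT2 they were in Hmga1, a chromatin protein (85.0%), Atrn (75.9%), Ep300, a histone acetyltransferase (74.3%), Snu13, a spliceosome protein (72.0%), Maz, a zinc finger factor (68.1%), and Axl, a receptor tyrosine kinase (67.0%). The 2 libraries of Axl gave 68.0% of 701 reads and 66.1% of 749 reads. None of these 6 lay in an inverted match. In LM8 they were Mrps33, a mitochondrial ribosomal protein (79.6%), Mad2l1 (67.1%), Rhot1 (29.0%), the Gabpb2 site above (26.1%), Samd8 (23.9%) and Stc1 (23.2%), and 2 of the 6 lay in a match. The Hmga1 allele was among 9 A-to-G and 11 T-to-C entries for which the lists give an allele frequency from a germline resource.

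T-to-C sites of high share were few. In MBT2 they were Il2rg, the common gamma chain of interleukin receptors (86.2% and 88.7% of reads in the libraries), Pxylp1 (82.1% and 71.0%), Slc16a1, a monocarboxylate transporter (41.4% and 41.7%), Atl1 (30.5% and 28.7%), Spty2d1 and Ltbp3. The class of the Atl1 site follows the annotated gene, but all 68 of its changed reads with a given orientation came from the antisense strand, on which the change is A-to-G. In LM8 they were Ugcg, glucosylceramide synthase (92.3% and 90%), which lay among TA and CA repeats and whose allele has a germline-resource frequency, Fndc3b (25.4% and 21%), and then Ino80c, Slc5a6, Slc6a6 and Kansl1 at 18.6% to 20%. All of these 12 had the changed base at least 9 bases from read ends. The genes with most T-to-C sites had low shares instead. Ormdl3, a regulator of sphingolipid synthesis, had 3 in MBT2 at 3.40% to 7.23%, and Pabpc1, the poly(A)-binding protein, Rabggtb and Pdpn had 2 each at 1.51% to 3.40%. In LM8, Fundc2, Eif4a1, Slc6a9 and Derpc had 2 each at 1.64% to 8.33%. All 17 of these entries had a median distance of 1 to 5 bases from the read end.

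Of the 1190 distinct sites, 31 A-to-G and 44 T-to-C sites were in both lists. This was 16.2% of the LM8 and 10.3% of the MBT2 A-to-G sites, and 12.7% and 10.3% of the T-to-C sites. At gene level 45 genes had an A-to-G site in both lines and 63 a T-to-C site. Of the 44 shared T-to-C sites, 40 were near read ends in both lines, and of the 31 shared A-to-G sites, 5. The read share differed between lines at 6 of the 31 A-to-G sites and 0 of the 44 T-to-C sites (Fisher exact test on reads summed over libraries, Benjamini-Hochberg over the 1261 variants in both lists, of which 7.3% were called). At an unadjusted p under 0.05, 7 A-to-G and 2 T-to-C sites passed, against 13.6% of all variants in both lists. The libraries of the lines did not overlap at 16 of the A-to-G and 10 of the T-to-C sites, against 37.8% of those variants. Without replicate 1 of both lines, 3 of the shared members still in both lists passed, and without replicate 2, 2 passed.

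All 6 called sites were higher in MBT2. Rpl7l1, related to a ribosomal protein, had 4.58% and 4.12% in the LM8 libraries and 13.3% and 10.7% in MBT2. Spc24, a subunit of the kinetochore Ndc80 complex, had 4.49% in each LM8 library and 13.3% and 19.0% in MBT2. At the Nup155 site printed above, in a nuclear pore gene, LM8 had 6.56% and 9.68% and MBT2 27.5% and 25.9%. The LM8 libraries lay below the MBT2 libraries at all 3 sites.

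Parg, which removes poly(ADP-ribose), had 1.96% and 6.74% in LM8 and 16.1% and 13.1% in MBT2. Phc2, a Polycomb protein, had 5.08% and 1.45% against 7.72% and 10.8%. The Atl3 site at base 1214 had 3.88% and 1.98% against 8.91% and 13.9%. At these 3 sites too the libraries of the lines did not overlap. Of the 6, Spc24 alone lay in an inverted match of its listed transcript, and the Rpl7l1 site could not be placed in its transcript. The Atl3 site was searched only in the shorter of the 2 listed Atl3 3′ UTRs. Among the others the libraries were close in both lines at Azi2 (10.7% and 9.52% against 10.5% and 12.8%) and Fubp3 (12.3% and 10.2% against 8.51% and 11.6%). These sites were chosen by being in both lists, and reads of a line come from 1 pair of libraries, so the difference describes these libraries.

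**Figure D5:**
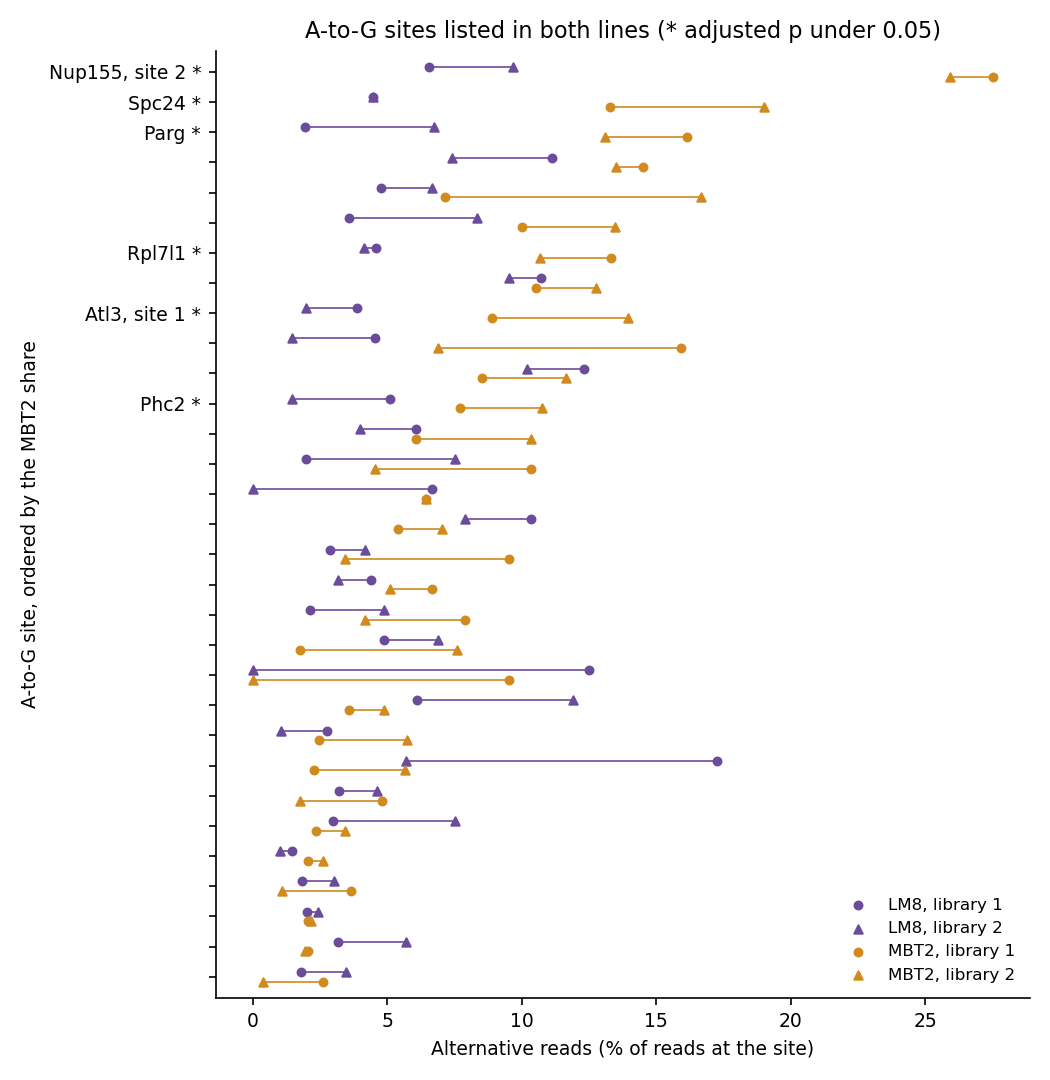
Share of reads with the changed base, in percent (horizontal axis), at each of the 31 A-to-G sites listed in both lines (vertical axis, ordered by the MBT2 share) in LM8 (purple) and MBT2 (orange), with circles for library 1, triangles for library 2 and a line joining them; sites with an adjusted p under 0.05 are named and marked with an asterisk. The 6 named sites all have both MBT2 libraries to the right of both LM8 libraries, and at 16 of the 31 sites the libraries of the lines do not overlap, against 37.8% of all variants in both lists.

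In the list of 34 genes of the editing machinery and double-stranded RNA sensing, 12 had any listed variant in each line, and few had a member. LM8 had A-to-G sites in Pspc1, a paraspeckle protein (3.17% and 4.29%), and Stau1, which binds double-stranded RNA (3.23% and 1.27%), and a T-to-C site in Elavl1, which binds AU-rich 3′ UTRs (5.08% and 4.96%). MBT2 had 2 A-to-G sites in Ago2, the slicing Argonaute (2.74% and 5.88%, and 1.41% and 4.17%), and a T-to-C site in it (10.7% and 4.76%). All of these 6 lay within 3 bases of a read end in the median. None was in the ADAR genes. Of 32 known editing targets, 10 had a listed variant in LM8 and 11 in MBT2. Son, a nuclear speckle protein, had an A-to-G member in LM8 (6.25% and 2.94%, 14 bases from the read end), and no T-to-C member was in the list.

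The place along the 3′ UTR went with the place in the read in both classes. Away from read ends, A-to-G sites lay in 3′ UTRs with a median length of 2742 bases, at a median of 44.5% of the length, and T-to-C sites in 3′ UTRs of 2389 bases, at 44.2%. Near read ends the lengths were 1377 bases for A-to-G and 1456 bases for T-to-C sites, at 66.6% and 61.3% of the length. The annotated 3′ UTR can be longer than the one a cell uses. These positions are descriptions of the annotation and of where reads fell, and the reads cover poly(A) RNA.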

How the data were processed

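The deposited files are 2 variant lists, 1 per line, of records that passed the authors' filters; per the file headers they came from Mutect 2.2 run jointly on both libraries of a line without a matched normal sample, GATK filtering and SnpEff 5.1d annotation on GRCm39 (database 105). The headers name GATK 4.1.5.0, and the submitters' processing notes name GATK 4.3.0, STAR 2.7.9a, cutadapt 1.9.1 and bcl2fastq 2.17.1.14. The aligner's settings are not given in the sources used here. The deposited values are read counts per allele, library, fragment orientation and read direction, not normalized, with 1 median distance of the changed base from the read end per site. The filters that bear on these sites, per the file headers, were a median base quality of 20, a median mapping quality of 30, a median read position of 1, at most 2 events in a region and at most 1 alternative allele.

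The read share is the reads with the changed base divided by all reads of both alleles, and a line's value sums its 2 libraries. Gene strand came from the listed transcript in the GENCODE M21 annotation for 1264 entries and from the gene name for 1. That release is on GRCm38, so it gave strand, transcript sequence and place in the transcript, found from the listed distance to the coding end, and no coordinate. The listed base was found there for 98.7% of 2285 located 3′ UTR substitutions. The other sites stay in the counts and are left out of windows and inverted matches, which were searched with BLAST 2.17.0 (word size 7). The search covered only the 3′ UTR of the transcript listed for each site, so a match in a longer 3′ UTR of the gene would be missed. Shares carry exact Clopper-Pearson 95% intervals, and odds ratios carry Woolf intervals with 0.5 added to each cell. Both cover counting error only, since reads without molecular identifiers are not independent molecules. Fisher exact tests were 2-sided, with Benjamini-Hochberg adjustment over the lines or over all sites. The tests were checked on simulated data. Replicate numbers were not taken to pair the libraries.

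Named genes were those with a site in both lines, the 8 genes with most A-to-G and 4 with most T-to-C sites per line, the 6 sites of highest read share per class and line among those with at least 40 reads, and members of the gene lists. Sites, gene lists and tests were chosen with earlier results of these data known. The analysis used Python 3.11.15, scipy 1.17.1, pandas 2.3.3, numpy 2.4.6 and matplotlib 3.10.9. No sequence is printed for some named sites, and a few named sites are not reported here.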

Additional observations from a re-analysis of the deposited data

How the results depend on the processing

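Of 81 alternative values, 67 kept their direction and their side of the test. Keeping sites with the changed base at least 5 bases from a read end, a setting added after seeing the data, moved the A-to-G share of the pair to 75% in LM8 and 83.3% in MBT2. It reversed the odds ratio against coding substitutions, to 2.26 in LM8 and 1.25 in MBT2, and left the odds ratios for a read share of at least 10% at 1.09 and 1.68, no longer past the threshold. The odds ratio of MBT2 over LM8 for A-to-G also missed it under this setting (1.67), with at least 40 reads (1.27) and with 1 site per gene (1.21), and ranged from 1.22 to 1.40 with 1 library of each line left out. The LM8 odds ratio for a close neighbour passed it with a window of 50 bases (7.52), in a test that takes paired sites as independent. The sense share of LM8 T-to-C reads ranged from 99.3% to 99.8% with 1 library left out. Sites in both lists called between lines fell from 92 to 37 without replicate 1 and to 46 without replicate 2, where fewer reads were tested. With the replicate block (Cochran-Mantel-Haenszel test) 84 were called, and 6 members as before. Deviations of same-numbered libraries were not correlated (r = -0.0222 over 1261 sites), which gives no sign that the numbers pair the samples. Counting error at these depths could hide a small shared effect, so pairing is not excluded. The cause of these changes was not tested, except that leaving out a library removes reads and sites. At the median depth, 1 read more or less moves a site's share by 0.583 to 0.840 percentage points, so low shares are coarse.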
